A study of Homo sapiens with 54 samples.

Results

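The genes described here are the translation initiation factors and the proteins that bind or phosphorylate them, that is, the genes whose symbol starts with EIF and a digit from 1 to 6. The rule kept 54 of the 33119 genes counted. It matched 56 symbols, of which the Y-linked copy of EIF1AX and the pseudogene EIF3IP1 were left out. In each of the 2 sets of libraries 53 of the 54 members had at least 1 count, and 49 or 50 had enough counts to be tested in a comparison.

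The study sequenced RNA of human cancer cell lines cultured with or without a targeted drug, as 54 libraries in 18 groups of 3. Trametinib blocks the kinases MEK1 and MEK2, palbociclib blocks CDK4 and CDK6, and afatinib binds the ERBB receptors irreversibly and blocks their kinase activity. Set 1 held trametinib-treated and control SW48 cells and trametinib-treated and control SW620 cells. Set 2 held SW48 and SW620 cells with trametinib, with palbociclib and without a drug, and NCI-N87, MKN-45, BT-20 and BT-474 cells with afatinib and without it. SW48 and SW620 are colorectal, NCI-N87 and MKN-45 gastric, and BT-20 and BT-474 breast cancer lines, each an established line, so every group models 1 line. The sources used here give neither dose nor time of treatment. Separate cultures are not stated for the 3 libraries of a group, so the spread behind each p-value is that between libraries and may be technical. A lower level in such bulk RNA cannot be told apart from a smaller share of cells that express the gene.

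Initiation of translation starts with eIF4E, which binds the cap of an mRNA and, with the scaffold eIF4G and the helicase eIF4A, forms the complex eIF4F. The 4E-binding proteins hold eIF4E away from eIF4G until they are phosphorylated by the kinase mTORC1, which is itself under the control of growth factor signals that include the ERK and AKT pathways. The small ribosomal subunit, loaded with eIF3, eIF1, eIF1A, eIF5 and the initiator tRNA on eIF2, then scans to the start codon, where eIF2 releases the tRNA, eIF5B joins the large subunit, and eIF2B recharges eIF2. Stress kinases that phosphorylate eIF2 block that recharging and so lower general translation while raising that of the transcription factor ATF4.

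Levels are given as CPM, each library's counts scaled to a common total. The labels name a QuantSeq kit, known for tags at the 3′ end of transcripts, beside a catalogue number that may belong to another kit. Whether reads lie at the 3′ end or along whole transcripts is therefore not certain, and levels are not set against each other between genes. Library totals ran from 4063382 to 10622670 counts in set 1 and from 3401565 to 12806042 in set 2, and members took between 0.878% and 1.33% of them. The epithelial marker EPCAM was at 223 CPM or more in every library. SW620 control 3 of set 1 stood apart from the other libraries of its group (mean correlation 0.8345 over log2 CPM), and NCI-N87 control 1 stood apart in set 2 (0.9571). Between the sets, controls labelled as 1 line differed in line markers, such as ERBB2 at 988 CPM on average in SW48 of set 1 and 101 CPM in SW48 of set 2, and therefore each drug group was set only against its own line's controls of the same set. DUSP6, a feedback gene of ERK signalling, fell with trametinib in SW48 (log2 change −3.65 in set 1 and −2.50 in set 2), while in SW620 it had values of −0.49 in set 1 and −0.29 in set 2 that did not pass the test.

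The promoters of 5 members are shown because EIF1, EIF3J, EIF5 and EIF6 were lower in at least 4 of the 10 drug comparisons and at least 2-fold lower in 1, and because EIF4EBP2 was higher in 3 of them while EIF4EBP1 was lower. Those of EIF2S2 and EIF4EBP1, which were lowered as well, are not shown. Each run is the RefSeq sequence of build GRCh38.p14 from 250 bases before to 30 bases after the annotated start, read 5′ to 3′ on the gene's strand, with capitals for an E-box, a CCAAT box or an ETS core on either strand. The runs lie at chr17:41688635-41688914 on the plus strand (EIF1), chr15:44536897-44537176 on the plus strand (EIF3J), chr14:103333987-103334266 on the plus strand (EIF5), chr20:35284688-35284967 on the minus strand (EIF6) and chr10:70403895-70404174 on the plus strand (EIF4EBP2).
EIF1: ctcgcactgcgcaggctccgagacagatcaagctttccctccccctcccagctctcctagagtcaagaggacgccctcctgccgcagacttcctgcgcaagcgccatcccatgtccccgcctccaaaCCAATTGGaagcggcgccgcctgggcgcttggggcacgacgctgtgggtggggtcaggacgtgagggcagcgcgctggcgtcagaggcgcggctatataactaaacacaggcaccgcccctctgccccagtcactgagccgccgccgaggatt
EIF3J: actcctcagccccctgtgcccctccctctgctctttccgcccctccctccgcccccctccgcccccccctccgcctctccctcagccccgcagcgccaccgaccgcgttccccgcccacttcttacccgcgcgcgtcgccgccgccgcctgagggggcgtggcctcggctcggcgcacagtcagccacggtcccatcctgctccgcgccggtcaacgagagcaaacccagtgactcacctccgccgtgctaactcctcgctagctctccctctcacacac
EIF5: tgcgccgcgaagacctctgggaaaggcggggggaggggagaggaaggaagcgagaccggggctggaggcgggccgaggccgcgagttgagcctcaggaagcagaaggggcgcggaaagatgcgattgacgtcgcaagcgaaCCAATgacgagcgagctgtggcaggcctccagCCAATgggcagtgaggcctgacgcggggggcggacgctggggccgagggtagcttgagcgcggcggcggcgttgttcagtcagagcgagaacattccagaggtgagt
EIF6: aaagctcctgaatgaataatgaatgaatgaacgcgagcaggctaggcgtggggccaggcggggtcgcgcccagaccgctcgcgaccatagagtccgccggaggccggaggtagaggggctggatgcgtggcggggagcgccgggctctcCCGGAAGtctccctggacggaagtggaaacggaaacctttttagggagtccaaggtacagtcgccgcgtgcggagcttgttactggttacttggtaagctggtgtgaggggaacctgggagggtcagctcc
EIF4EBP2: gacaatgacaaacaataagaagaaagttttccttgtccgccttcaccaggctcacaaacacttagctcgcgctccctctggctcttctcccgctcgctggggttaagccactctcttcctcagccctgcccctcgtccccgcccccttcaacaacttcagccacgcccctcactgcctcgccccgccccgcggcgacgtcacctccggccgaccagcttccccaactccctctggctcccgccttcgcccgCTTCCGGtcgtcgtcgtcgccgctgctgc
EIF1 held 2 overlapping CCAAT boxes, EIF5 held 2 separate ones, EIF6 and EIF4EBP2 held 1 ETS core each, and EIF3J held none of these motifs. Over the 300-base promoters of the 45 members in the table (250 bases before to 50 after the start), searched on both strands, the E-box CACGTG was in 12 (26.7%, against 7.4% of all 27305 promoters), the ETS core CCGGAAG in 11 (24.4%, against 10.7%), the CCAAT box, as ATTGG, in 18 (40.0%, against 35.7%) and TGACGTCA, the cAMP response element, in 0 (against 2.0%). All promoters here, and in the share below, were not limited to genes expressed in these lines. The shares therefore do not set members apart from other expressed genes. A C followed by 4 pyrimidines, starting within 5 bases of the annotated start on either side, was found in 16 (35.6%, against 21.1% of all promoters). EIF1, EIF3J and EIF4EBP2 were among them. Such a run resembles a terminal oligopyrimidine tract, by which mTORC1 is known to act on mRNAs of the translation machinery. In EIF1 the run lies wholly before the annotated start, so it is not such a tract there. In EIF4EBP2 it is part of the ETS core.

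In SW48 cells trametinib lowered more of these genes than it raised. In set 1, 4 of the 50 members tested were higher and 19 lower (edgeR's quasi-likelihood test, Benjamini-Hochberg adjusted p under 0.05, as in all calls below), against 16% higher and 19.4% lower among all genes tested. Fitted jointly with the other groups of set 1, 11 were called, against 15.3% of all genes. In set 2, 10 of 50 were higher and 26 lower, against 30.1% and 30.1% of all genes. Fewer members were called there when all groups of set 2 were fitted jointly, as counted in the part on processing below. The median change of the members was −0.21 in set 1 and −0.23 in set 2 on the log2 scale, and that of all genes 0.01 in both. Members took 1.03% ± 0.04 of all counts in trametinib-treated SW48 cells of set 2, against 1.31% ± 0.02 in controls (SD, n = 3 each).

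Palbociclib also lowered more members than it raised in both colorectal lines. In SW48 5 of 50 members were higher and 22 lower, against 28.3% and 29.2% of all genes, and in SW620 6 of 49 were higher and 19 lower, against 17.6% and 17.4%. The median member changed by −0.13 in SW48 and −0.19 in SW620. Trametinib in SW620 gave 0 calls of 49 members, higher or lower, in either set, as did all genes (0% higher and 0% lower in set 1, 0% and 0% in set 2). There, 1 member of set 1 and 12 of set 2 had an unadjusted p under 0.05, and DESeq2 called 0 and 4. Without trametinib 1 of set 2 edgeR called 6 of 49 members there, against 6.71% of all genes.

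Afatinib changed members in BT-474, where 4 of 50 were higher and 18 lower, against 20.9% and 21.8% of all genes, with a median member at −0.16. In NCI-N87 0 of 50 members were higher or lower (0% and 0% of all genes), in MKN-45 0 of 50 (0% and 0%), and in BT-20 0 of 50 (0.273% higher and 0.312% lower of all genes). Unadjusted p was under 0.05 for 13 members in NCI-N87, 4 in MKN-45 and 6 in BT-20, and DESeq2 called 0 in each of these 3 lines. Without NCI-N87 control 1 edgeR called 13 of 50 members in that line, against 16.4% of all genes.

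Over the 10 drug comparisons 49 of the 50 members tested passed in at least 1, as did 76.1% of all genes tested in any and 90.6% of those tested in all 10, so passing once was common to most genes. In 497 tests on members 104 calls were lower and 29 higher, against 11.8% lower and 11.3% higher in the tests on all genes. The comparisons of trametinib and of palbociclib in 1 line of set 2 share their control libraries. Of the 49, 29 were lower only, 6 higher only (EIF2AK1, EIF2B1, EIF2B5, EIF3B, EIF4E3 and EIF5A2) and 14 lower in some comparisons and higher in others. EIF1, EIF2S2, EIF3J and EIF4EBP1 were lower in 5 comparisons, namely trametinib in SW48 of both sets, palbociclib in SW48 and SW620, and afatinib in BT-474. EIF4ENIF1, whose product carries eIF4E into the nucleus, was called in none, with values between −0.45 and 0.20, although its value with palbociclib in SW620 passed in the joint fit of all groups of set 2 (−0.42, 0.045). The single calls on EIF2B5 and EIF4E3, with trametinib in SW48 of set 2, were lost for 5 of the 6 libraries (0.14 to 0.22) and for 4 of them (0.29 to 0.51) when that library was left out.

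**Figure D1:**
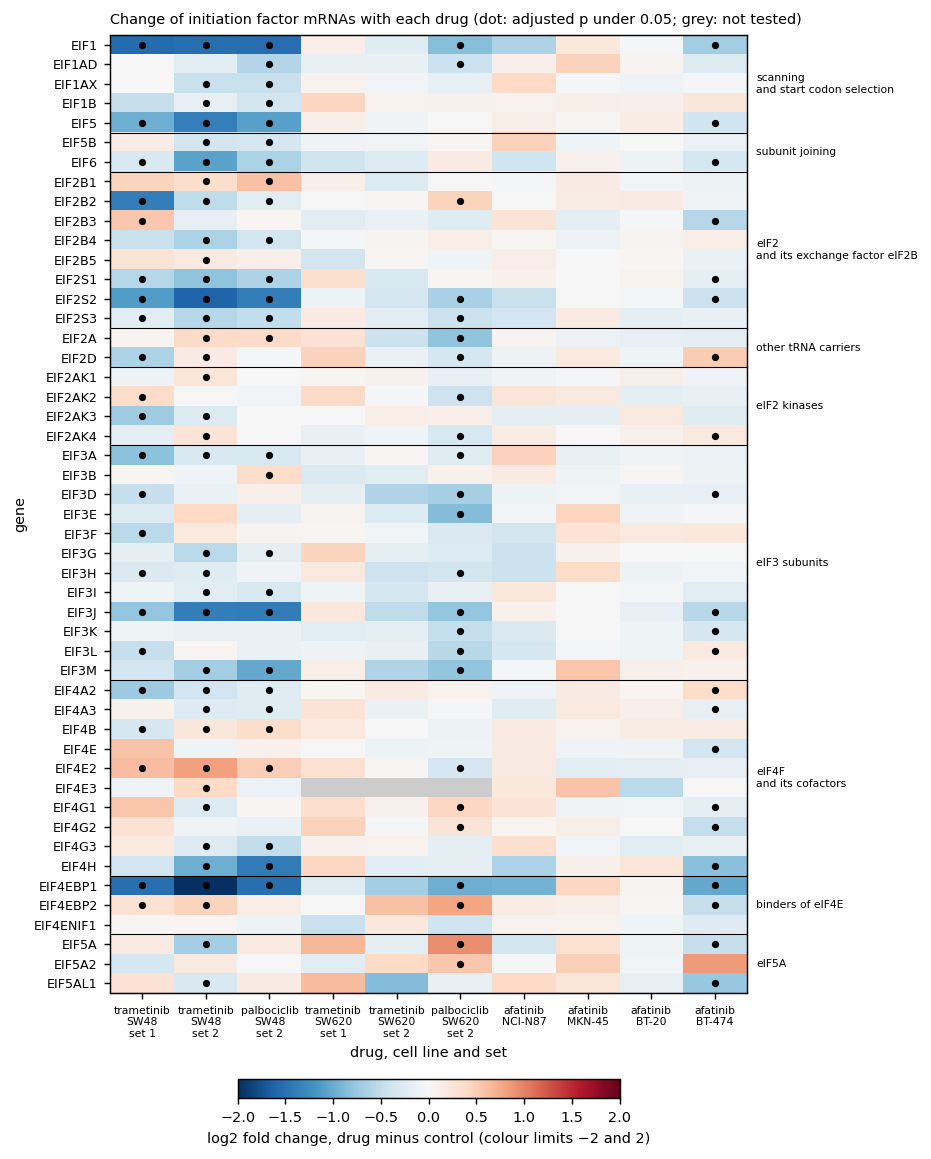
Log2 fold change, drug minus control, of 49 members (down the page, grouped by role) in the 10 drug comparisons (across); blue is lower and red higher with the drug, a dot marks an adjusted p under 0.05, grey was not tested, and EIF3C is left out. Dots gather in the 3 SW48 columns, in palbociclib in SW620 and in afatinib in BT-474, and EIF1, EIF2S2, EIF3J and EIF4EBP1 are blue with a dot in all 5.

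Mitochondrial rRNA, one sign of library composition, was higher with the drugs in SW48. Its share of counts was 4.64% to 5.64% with trametinib and 1.63% to 3.81% in controls of set 1. In set 2 it was 2.25% to 3.33% with trametinib and 2.94% to 4.52% with palbociclib, against 0.970% to 1.60% in controls. Summed fibroblast markers (COL1A1, COL1A2, PDGFRB) were at 13.7 to 16 CPM with trametinib and 6.27 to 7.66 CPM with palbociclib in SW48 of set 2, against 3.73 to 4.41 CPM in controls, and in set 1 at 41.1 to 65.8 CPM with trametinib, against 1.18 to 14.3 CPM in controls. Of these, only COL1A1 had enough counts to be tested in SW48. Summed intestinal markers (CDX1, CDX2, VIL1, CDH17) were at 254 to 280 CPM with trametinib and 166 to 188 CPM with palbociclib in SW48 of set 2, against 99.5 to 113 CPM in controls, and in set 1 at 388 to 450 CPM with trametinib, against 101 to 126 CPM in controls. Summed leukocyte markers (PTPRC, CD3E, CD68) were at 15.1 to 19.7 CPM with trametinib and 19.5 to 26.7 CPM with palbociclib, against 12.3 to 13 CPM in controls of set 2. In set 1 they went the other way, at 14.6 to 15.6 CPM with trametinib, against 24.8 to 29.7 CPM in controls, and CD3E was at 0 in all SW48 libraries. In SW620 the mitochondrial rRNA share was 2.86% to 3.22% with palbociclib and 1.36% to 3.51% in controls. Summed fibroblast markers were there at 5.8 to 142 CPM with palbociclib, against 5.19 to 10.2 CPM in controls, intestinal markers at 108 to 117 CPM, against 92.2 to 96.2 CPM, and leukocyte markers at 3.12 to 4.7 CPM, against 2.7 to 4.04 CPM. Of the intestinal markers in SW620, CDX2 fell with palbociclib (log2 change −0.38), while VIL1 and CDH17 rose (0.56 and 1.89). In BT-474 the mitochondrial share was 7.63% to 9.73% with afatinib and 9.38% to 12% in controls, and the sums were 37.4 to 48.7 CPM with afatinib, against 33.1 to 37.7 CPM in controls, for fibroblast markers, 3.42 to 7.14 CPM, against 1.51 to 3.05 CPM, for intestinal markers and 3.09 to 4.8 CPM, against 1.66 to 5.82 CPM, for leukocyte markers. Values that name no gene, deposited for set 1, were 69.72% to 73.76% with trametinib in SW48 and 53.59% to 64.2% in controls. Library totals there were 4063382 to 5211206 and 6127950 to 8068003 counts. In set 2 totals were also lower with each drug in SW48 than in controls. In BT-474 they were 5765064 to 6228509 with afatinib and 7487141 to 8137276 in controls. In SW620 they were 12128502 to 12266477 with palbociclib, against 10012099 to 12806042. The part of all these in the results on members was not tested.

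Among the factors that hold the scanning ribosome and select the start codon, EIF1 and EIF5 were lowered. EIF1, the guard of start codon fidelity, had 509, 466 and 460.4 CPM in trametinib-treated SW48 cells of set 1, against 1357, 1446 and 1399.9 CPM in controls. In SW48 of set 2 it had 573, 544 and 499 CPM with trametinib and 531, 537 and 501 CPM with palbociclib, against 1522, 1453 and 1541 CPM in controls. Every treated SW48 library was below every control of its set, and EIF1 fell by 1.54 ± 0.07 (log2 ± SE; adjusted p = 5.3e-06), 1.5 ± 0.06 (5.3e-10) and 1.52 ± 0.06 (4.2e-11) on the log2 scale.

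EIF1 also fell in SW620 with palbociclib and in BT-474 with afatinib. It had 419, 385 and 404 CPM in palbociclib-treated SW620 cells, against 780.3, 817 and 654 CPM in controls (log2 change −0.85 ± 0.09, adjusted p = 7.1e-05). In BT-474 it had 589, 574 and 564 CPM with afatinib, against 927, 936 and 973 CPM in controls (−0.70 ± 0.06, 9.7e-07). The groups did not overlap in either. In SW620 with trametinib the libraries of set 2 had 782, 711 and 433 CPM, of which only the last lay below the controls (−0.24 ± 0.19, adjusted p = 0.53), and those of set 1 had 645, 673 and 654 CPM, against 657, 693 and 416 CPM in controls (0.13 ± 0.22, 0.92).

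EIF5, which triggers hydrolysis of the GTP on eIF2, was lowered in SW48 and BT-474 and not called in SW620. It had 197, 176 and 183 CPM with trametinib and 229.9, 227 and 210.4 CPM with palbociclib in SW48 of set 2, against 486, 443 and 492 CPM in controls. Both treated groups lay far below the controls, with log2 changes of −1.37 ± 0.06 (adjusted p = 2.3e-09) and −1.09 ± 0.06 (3.4e-09), and the change with trametinib in set 1 was −0.98 ± 0.08 (9.3e-05). In BT-474 the change with afatinib was −0.40 ± 0.06 (1.9e-04). In SW620 EIF5 had 190.1, 186 and 199.9 CPM with palbociclib, against 199.7, 218 and 180.1 CPM in controls, so that the groups overlapped (−0.01 ± 0.09, 0.96).

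Of the other members of this role, EIF1AX, the X-linked gene of eIF1A, was at 263, 270.5 and 235 CPM with trametinib and 254, 273 and 234 CPM with palbociclib in SW48 of set 2, against 351, 342 and 346 CPM in controls. It fell by 0.45 on the log2 scale with each (adjusted p = 4.1e-05 and 3.7e-05), and in set 1 its value with trametinib was 0.01 (0.95). With palbociclib in SW48, EIF1B, a close relative of EIF1, fell by 0.37 and EIF1AD, which resembles eIF1A, by 0.59 on the log2 scale.

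Subunit joining is carried by EIF5B, the GTPase that brings in the large subunit, and EIF6, which keeps the large subunit apart until it is mature. EIF6 had 119, 133 and 125 CPM with trametinib and 179, 163 and 162 CPM with palbociclib in SW48 of set 2, against 253, 276 and 253 CPM in controls. The 3 groups did not overlap, trametinib being lowest, with changes of −1.07 ± 0.07 (adjusted p = 3.8e-08) and −0.63 ± 0.07 (2e-06). In BT-474 EIF6 fell by 0.35 ± 0.08 (0.0041), which did not pass in the joint fit of set 2 (0.088). The change in SW48 of set 1 (−0.30, 0.027) did not pass without control 2, control 3, trametinib 1 or trametinib 3 of that comparison (range −0.36 to −0.26, adjusted p up to 0.085). EIF5B fell by 0.37 and 0.35 with trametinib and palbociclib in SW48 of set 2 (5.8e-05 and 1.4e-04) and was not called in other comparisons.

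The 3 subunits of eIF2, the carrier of the initiator tRNA, were each lowered in SW48. EIF2S2, the beta subunit, had 219.9, 224 and 248 CPM in trametinib-treated SW48 cells of set 1, against 519, 514 and 472 CPM in controls (−1.11 ± 0.09, adjusted p = 5.9e-05). In set 2 it had 245, 249 and 229 CPM with trametinib and 273, 299 and 252 CPM with palbociclib, against 702, 714 and 744 CPM in controls. Levels with either drug were thus below every control, with changes of −1.60 ± 0.06 (1.8e-10) and −1.39 ± 0.07 (4.8e-10).

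EIF2S2 was also lower in SW620 with palbociclib, at 581, 536 and 586 CPM, against 909, 996 and 838 CPM in controls (−0.64 ± 0.09, adjusted p = 2.7e-04). In BT-474 it had 119, 128 and 123 CPM with afatinib, against 160.4, 168 and 174 CPM in controls (−0.43 ± 0.06, 1.8e-04). Neither pair of groups overlapped. EIF2S1, the alpha subunit that the stress kinases phosphorylate, had 112, 113 and 112 CPM with trametinib and 131, 125 and 123 CPM with palbociclib in SW48 of set 2, against 195, 197 and 191 CPM in controls (−0.81 ± 0.06, 1.3e-07, and −0.62 ± 0.06, 9.2e-07). It also fell in SW48 of set 1 (−0.57 ± 0.12, 0.0084), and in SW620 with palbociclib its libraries overlapped the controls (0.04, 0.71). EIF2S3, the gamma subunit, fell with trametinib and palbociclib in SW48 of set 2 (−0.56 and −0.49) and with palbociclib in SW620 (−0.42), while its call in SW48 of set 1 (−0.23, 0.045) was lost whichever of the 6 libraries was left out (−0.26 to −0.21).

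Subunits of the exchange factor eIF2B were called in both directions. EIF2B2 (beta) had 33.9, 20.2 and 47.2 CPM in trametinib-treated SW48 cells of set 1, against 69.4, 104 and 93.1 CPM in controls (−1.38 ± 0.28, adjusted p = 0.007). In SW48 of set 2 it fell by 0.51 ± 0.07 with trametinib (2.9e-05), and its value of −0.22 with palbociclib (0.024) did not pass without control 1, palbociclib 2 or palbociclib 3. In palbociclib-treated SW620 it rose, at 70.1, 70.7 and 70.6 CPM, against 58.4, 51.7 and 49.9 CPM in controls (0.45 ± 0.09, 0.0027). EIF2B1 (alpha) rose in SW48 of set 2, to 42.8, 43.2 and 44.4 CPM with trametinib and 54.4, 53.1 and 44.0 CPM with palbociclib, against 33.5, 33.8 and 33.4 CPM in controls (0.36 ± 0.07, 8.1e-04, and 0.59 ± 0.09, 5.7e-05). EIF2B4 (delta) fell with both (−0.63 and −0.36), and EIF2B3 (gamma) fell with afatinib in BT-474 (−0.57 ± 0.12, 0.0023), while its rise with trametinib in SW48 of set 1 (0.54, 0.036) was lost whichever library was left out (0.44 to 0.61). Annotated genes on the other strand overlap the 3′ ends of 8 members (EIF2AK2, EIF2B1, EIF2B2, EIF3A, EIF3G, EIF3J, EIF4A2 and EIF5B), and genes on the same strand those of EIF3L, EIF4A1 and EIF4EBP3, and the strand setting of the counting is not given in the sources used here, so reads of those neighbours cannot be told apart from theirs.

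EIF2A and EIF2D can bring tRNA to the ribosome without eIF2, and EIF2A rose in SW48 of set 2 and fell in SW620 with palbociclib. EIF2A had 97.3, 86.0 and 78.5 CPM with trametinib and 85.4, 84.6 and 88.1 CPM with palbociclib in SW48 of set 2, against 66.8, 64.7 and 66.7 CPM in controls. All treated libraries were above all controls (0.38 ± 0.08, adjusted p = 0.0011, and 0.38 ± 0.07, 1.9e-04). In SW620 it had 62.3, 64.3 and 55.6 CPM with palbociclib, against 101, 113 and 113 CPM in controls, all treated libraries below (−0.80 ± 0.09, 1.1e-04). EIF2D had 28.7, 34.5 and 30.2 CPM with trametinib in SW48 of set 1, against 51.3, 42.7 and 50.5 CPM in controls (−0.62 ± 0.14, 0.01), a call lost in the joint fit of set 1 (0.36). Its call in SW48 of set 2 with trametinib (0.17, 0.045) was lost whichever library was left out (0.14 to 0.20), and that in SW620 with palbociclib (−0.35, 0.021) without control 1, control 2, palbociclib 1 or palbociclib 2 (−0.44 to −0.29). In BT-474 its rise with afatinib (0.51, 0.019) was not called without control 1, control 2 or afatinib 2 (down to 0.37, adjusted p up to 0.091).

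The 4 kinases of eIF2 had changes within 1 on the log2 scale wherever they were called. EIF2AK3 (PERK), the kinase of the endoplasmic reticulum, was lower with trametinib in SW48 of both sets (−0.72, adjusted p = 0.036, and −0.28, 0.036), and each call was lost in 4 of the 6 fits that left out a library: without control 1, control 2, trametinib 2 or trametinib 3 in set 1 (−0.91 to −0.56 over the 6 fits) and without control 3 or any of the trametinib libraries in set 2 (−0.31 to −0.25). EIF2AK2 (PKR), which senses double-stranded RNA, fell with palbociclib in SW620, at 70.9, 69.6 and 68.4 CPM, against 94.4, 109 and 83.7 CPM in controls (−0.41 ± 0.10, 0.009). Its rise with trametinib in SW48 of set 1 (0.36, 0.021) passed without trametinib 3 and was lost when any of the other 5 libraries was left out (0.30 to 0.42). EIF2AK4 (GCN2), the sensor of amino acid lack, was at 93.7, 94.7 and 94.7 CPM with trametinib and 75.6, 78.7 and 80.2 CPM with palbociclib in SW48 of set 2, against 80.0, 75.4 and 78.6 CPM in controls. It rose with trametinib by 0.26 ± 0.06 (0.0029), and palbociclib libraries overlapped the controls. In SW620 it had 54.7, 49.9 and 51.1 CPM with palbociclib, against 63.1, 71.9 and 65.0 CPM in controls (−0.32, 0.02), a lower level whose call was lost without control 2, palbociclib 2 or palbociclib 3 (−0.37 to −0.27). Its call with afatinib in BT-474 (0.20, 0.024) was lost whichever library was left out. EIF2AK1 (HRI), the heme-regulated kinase, rose by 0.24 ± 0.06 with trametinib in SW48 of set 2 (0.0033). In SW48 of set 1 neither EIF2AK4 nor EIF2AK1 was called with trametinib, and treated and control libraries overlapped. There EIF2AK4 had 123, 110 and 100 CPM with trametinib, against 122, 122 and 139 CPM in controls. EIF2AK1 had 380, 341 and 354 CPM, against 394, 376 and 389 CPM.

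**Figure D2:**
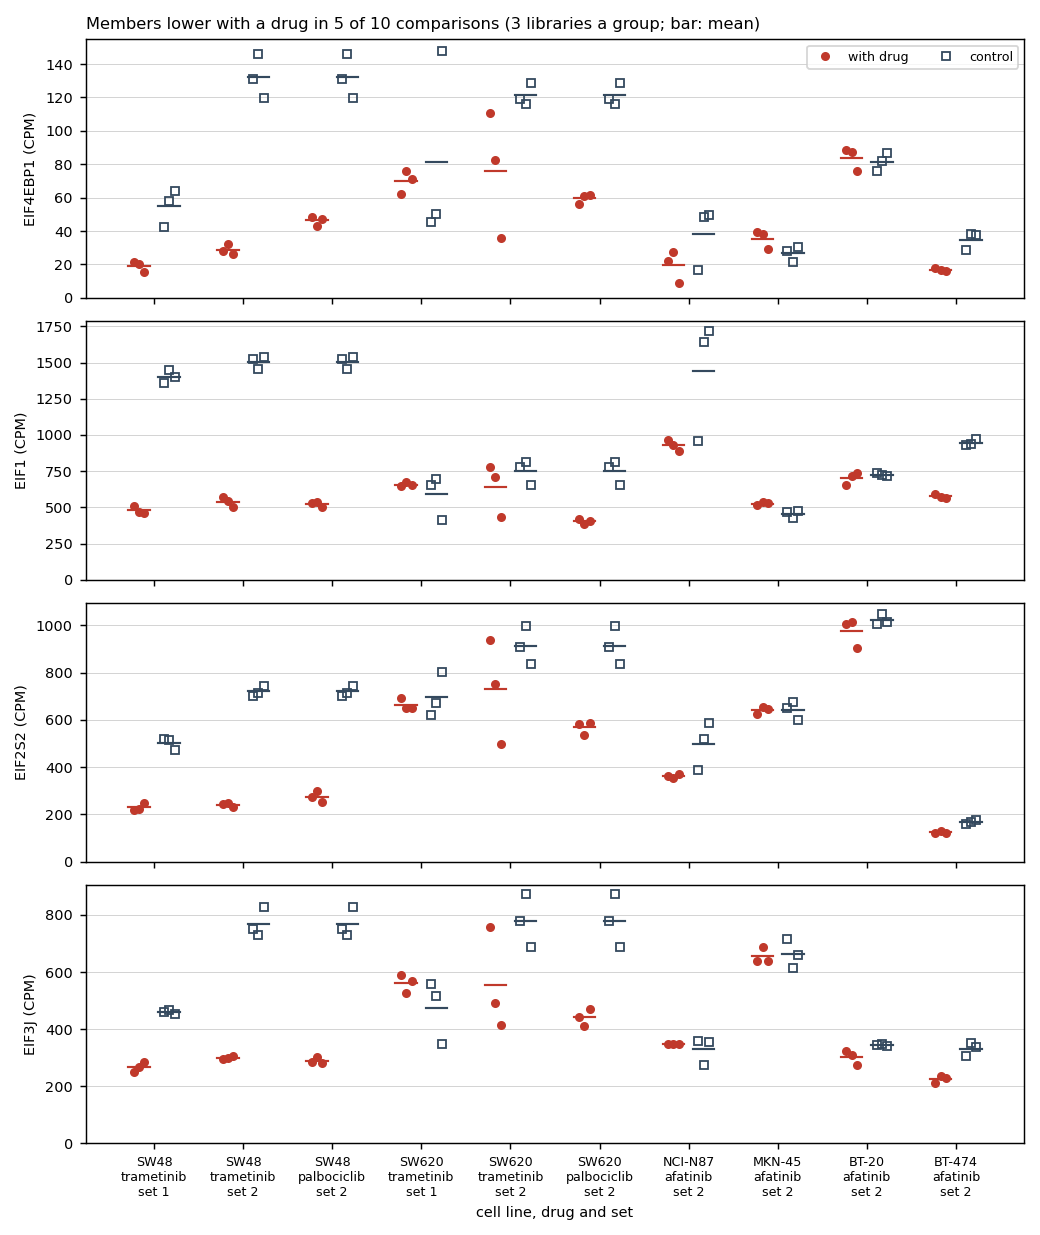
Levels in CPM of EIF4EBP1, EIF1, EIF2S2 and EIF3J in every library of the 10 drug comparisons; filled circles are drug libraries, open squares to their right are controls of the same line and set, and bars are means. In SW48, in palbociclib-treated SW620 and in BT-474 the circles lie below all squares, while in the other 5 comparisons they overlap, except that circles lie below all squares for EIF4EBP1 in trametinib-treated SW620 of set 2, EIF2S2 in NCI-N87 and EIF3J in BT-20, and above them for EIF1 in MKN-45.

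The complex eIF3 holds the ribosome, the factors and the mRNA together. Of its 13 subunits with enough counts, 0 were higher and 7 lower with trametinib in SW48 of set 1, 0 and 6 in set 2, 1 and 5 with palbociclib in SW48, 0 and 9 with palbociclib in SW620, and 1 and 3 with afatinib in BT-474. Among all genes 19.4%, 30.1%, 29.2%, 17.4% and 21.8% were lower in these comparisons, so that the 5 of 13 with palbociclib in SW48 and the 3 of 13 in BT-474 lie near the share of all genes. In the joint fits the trametinib calls in SW48 did not pass for EIF3D, EIF3F and EIF3H (set 1) or for EIF3A, EIF3H, EIF3I and EIF3M (set 2). Nor did those for EIF3G with palbociclib in SW48, EIF3A and EIF3H in SW620, and EIF3D and EIF3L in BT-474. The counts for SW48 of set 1 and for SW620 include EIF3C, whose reads are uncertain. EIF3J, the loosely held subunit that lies near the decoding site, was lowered in all 5 of these comparisons. It had 249, 267 and 285 CPM in trametinib-treated SW48 cells of set 1, against 462, 468 and 455 CPM in controls (−0.78 ± 0.08, adjusted p = 2.4e-04). In set 2 it had 294, 299 and 307 CPM with trametinib and 286, 302 and 283 CPM with palbociclib, against 751, 728 and 827 CPM in controls (−1.38 ± 0.06, 1.1e-09, and −1.41 ± 0.06, 2.4e-10). No treated library reached a control.

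In SW620 EIF3J had 444, 412 and 469 CPM with palbociclib, against 779, 872 and 689 CPM in controls (−0.78 ± 0.10, adjusted p = 1.7e-04). In BT-474 it had 213, 236 and 227 CPM with afatinib, against 307, 353 and 336 CPM in controls (−0.55 ± 0.07, 5.3e-05). In trametinib-treated SW620 of set 2, EIF3J had 758, 491 and 415 CPM and did not pass (−0.50 ± 0.20, 0.26), although it passed without trametinib 1 (−0.78, 0.016) and in the joint fit of set 2 (−0.50, 0.016). The gene SPG11, on the other strand, overlaps the 3′ end of EIF3J, and had 54 to 237 counts in a library of set 2.

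Among the other subunits, EIF3D and EIF3E were lowered in SW620 with palbociclib. EIF3D, a subunit that can itself bind the cap, had 448, 441 and 427 CPM with palbociclib in SW620, against 717, 725 and 701 CPM in controls (−0.66 ± 0.07, adjusted p = 7.9e-05), and its value in SW48 was 0.09 (0.24). EIF3E had 147, 174 and 145 CPM, against 261, 373 and 239 CPM in controls (−0.86 ± 0.15, 0.0014). EIF3K, EIF3L and EIF3H fell there by 0.47, 0.56 and 0.36 on the log2 scale, the last not passing in the joint fit (0.063), and EIF3M by 0.78, a call lost with DESeq2 (0.086) and without control 2, palbociclib 1 or palbociclib 2 (−0.97 to −0.42). In SW48 EIF3A, the largest subunit, fell with trametinib in both sets (−0.82 and −0.32, the second not passing in the joint fit, 0.052) and with palbociclib (−0.33). EIF3F, EIF3D and EIF3L fell with trametinib in SW48 of set 1 (−0.54, −0.46 and −0.45), of which EIF3F and EIF3D did not pass in the joint fit (0.13 and 0.053), and EIF3G fell with trametinib in set 2 (−0.54). EIF3I, a subunit bound to EIF3B, fell with palbociclib in SW48 (−0.31), and EIF3B, the scaffold subunit, rose with palbociclib (0.37 ± 0.06, 1.6e-04).

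EIF3C shares all 31-base words of its last 500 bases with its copy EIF3CL, which had 0 to 27 counts in a library, so its reads are uncertain. Its level jumped between libraries of 1 group: in SW48 of set 2 it had 113, 1.0 and 1.98 CPM with trametinib and 4.32, 145 and 3.25 CPM with palbociclib, against 199.7, 1.93 and 216 CPM in controls. In set 1 trametinib-treated SW48 libraries were at 0.183, 0.230 and 0.185 CPM, against 70.9, 72.8 and 86.9 CPM in controls (fitted log2 change −8.45, adjusted p = 1.5e-06), and in SW620 palbociclib libraries were at 1.62, 3.22 and 5.17 CPM, against 2.16, 198 and 262 CPM in controls (−5.49, 0.0037, with overlap). With the counts of EIF3CL added, these changes were −8.46 (1.6e-06) and −5.38 (0.004).

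Within eIF4F, the mRNA of the cap-binding protein EIF4E was called in 1 of the 10 comparisons. It had 61.5, 59.1 and 57.8 CPM with trametinib and 65.6, 66.1 and 67.9 CPM with palbociclib in SW48 of set 2, against 61.3, 62.2 and 64.4 CPM in controls (−0.09 ± 0.06, adjusted p = 0.23, and 0.09 ± 0.07, 0.28). In BT-474 it fell to 37.9, 41.3 and 44.9 CPM with afatinib, against 57.9, 53.4 and 51.7 CPM in controls (−0.38 ± 0.09, 0.005). In the other 7 comparisons it was not called (−0.10 to 0.58).

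EIF4E2, a cap-binding relative (4EHP) known as part of a repressor of translation, rose in SW48 and fell in SW620. It had 153, 157 and 165 CPM in trametinib-treated SW48 of set 1, against 116, 92.8 and 103 CPM in controls (0.62 ± 0.11, adjusted p = 0.003; 0.11 in the joint fit of set 1). In set 2 it had 132, 137 and 138 CPM with trametinib and 109, 113 and 99.6 CPM with palbociclib, against 68.8, 85.4 and 74.1 CPM in controls (0.81 ± 0.08, 2.4e-06, and 0.50 ± 0.09, 2e-04). In SW620 it had 106, 98.1 and 105 CPM with palbociclib, against 139, 139 and 124 CPM in controls (−0.33 ± 0.08, 0.0081). In each of these 4 comparisons the treated libraries lay on 1 side of all controls.

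The scaffold EIF4G1 had 534, 543 and 566 CPM with trametinib and 686, 674 and 656 CPM with palbociclib in SW48 of set 2, against 643, 671 and 647 CPM in controls. It fell with trametinib (−0.27 ± 0.05, adjusted p = 7e-04; 0.063 in the joint fit of set 2) and overlapped the controls with palbociclib. With trametinib in SW48 of set 1 EIF4G1 was not called, and its change went the other way, passing in DESeq2 (0.56, adjusted p = 0.045). In SW620 with palbociclib it rose, at 472, 467 and 512 CPM, against 395, 351 and 382 CPM in controls (0.41 ± 0.08, 0.0025). Its relative EIF4G2, which serves initiation without the cap, fell with afatinib in BT-474, at 1018, 1016 and 1078 CPM, against 1428, 1468 and 1459 CPM in controls (−0.47 ± 0.05, 2.7e-05), while its call with palbociclib in SW620 (0.26, 0.032) was lost when any library but control 2 was left out (0.20 to 0.29). EIF4G3, the closest relative of EIF4G1, fell with palbociclib in SW48 (−0.50 ± 0.12, 0.003).

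The helicases and their helpers differed as well. EIF4A1, the main helicase of eIF4F, had 0 counts in every library, although it is among the most abundant factors in most cells, so its level is not described. In the GENCODE 29 annotation 2 genes on its own strand overlap its last 500 bases, including the readthrough gene SENP3-EIF4A1, which had 0 to 3 counts in a library of set 2. EIF4A2, its relative, had 196, 182 and 209.6 CPM with trametinib in SW48 of set 1, against 354, 310.1 and 317 CPM in controls (−0.73 ± 0.09, adjusted p = 7.3e-04), fell with trametinib and palbociclib in set 2 (−0.38 and −0.25), and rose with afatinib in BT-474, at 298, 293 and 301 CPM, against 221, 231 and 248 CPM in controls (0.36 ± 0.06, 4.7e-04). EIF4H, which stimulates the helicase, had 28.2, 22.1 and 19.0 CPM with trametinib and 17.9, 20.7 and 12.3 CPM with palbociclib in SW48 of set 2, against 43.4, 36.4 and 55.7 CPM in controls (−0.98 ± 0.16, 1.4e-04, and −1.40 ± 0.17, 5.7e-06). In BT-474 it had 25.3, 24.0 and 28.5 CPM with afatinib, against 41.7, 48.4 and 50 CPM in controls (−0.84 ± 0.10, 4.6e-05). EIF4B, the other helper, rose with palbociclib in SW48 (0.35 ± 0.06, 1.6e-04). With trametinib it was lower in SW48 of set 1 (−0.33, 0.02), lost without trametinib 3, and higher in set 2 (0.22, 0.015), lost without control 1 or trametinib 1, and neither passed in the joint fit of its set (0.43 and 0.058). EIF4A3, the helicase of the exon junction complex, fell with both drugs in SW48 of set 2 (−0.26 and −0.24). In the joint fit of set 2 the changes with palbociclib in SW48 did not pass for EIF4A2 (0.068) or EIF4A3 (0.063).

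The 4E-binding proteins moved apart. EIF4EBP1 (4E-BP1) had 21.6, 20.5 and 15.7 CPM in trametinib-treated SW48 cells of set 1, against 42.5, 58.1 and 63.9 CPM in controls (−1.50 ± 0.20, adjusted p = 8.8e-04). In set 2 it had 28.1, 32.2 and 26.6 CPM with trametinib and 48.7, 43.1 and 47.3 CPM with palbociclib, against 131, 146 and 119.7 CPM in controls. It fell by 2.21 ± 0.10 on the log2 scale with trametinib (1.1e-09), the lowest value of the 50 members in that comparison, and by 1.51 ± 0.09 with palbociclib (3.7e-09). The 3 groups did not overlap, trametinib being lowest.

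EIF4EBP1 had 56.4, 60.9 and 61.8 CPM in palbociclib-treated SW620 cells, against 119, 116 and 129 CPM in controls (−0.98 ± 0.09, adjusted p = 2.2e-05). In BT-474 it had 17.7, 17 and 16.1 CPM with afatinib, against 28.7, 38.3 and 37.4 CPM in controls (−1.03 ± 0.13, 5.1e-05). Treated and control libraries did not overlap in either line. In SW620 with trametinib the libraries of set 2 were spread, at 110.5, 82.3 and 36.0 CPM, each below every control, and the change did not pass (−0.69 ± 0.30, 0.29). In NCI-N87 EIF4EBP1 had 22.2, 27.5 and 8.75 CPM with afatinib, against 16.9, 48.1 and 49.8 CPM in controls (−0.95 ± 0.43, 0.41), and without control 1, the library that stood apart, the change was −1.28 (0.019). In the joint fit of set 2 it passed with all libraries (−0.95, 0.042).

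EIF4EBP2 (4E-BP2) went the other way in the colorectal lines. It had 145, 148 and 131 CPM with trametinib and 102, 121 and 115 CPM with palbociclib in SW48 of set 2, against 104, 96.9 and 107 CPM in controls. It rose with trametinib (0.45 ± 0.07, adjusted p = 1.1e-04), and with palbociclib the groups overlapped and the change did not pass (0.14 ± 0.08, 0.14; 0.20 and 0.037 without palbociclib 1). In SW620 it had 203, 214 and 211 CPM with palbociclib, against 119, 127 and 129 CPM in controls (0.79 ± 0.08, 4.2e-05). Trametinib libraries of SW620 in set 2 were also above every control, at 161, 210.1 and 199.8 CPM, and the change did not pass with all libraries (0.59 ± 0.12, 0.22) and passed without trametinib 1, the library nearest to the controls (0.71, 0.01), as well as with all libraries in DESeq2 (0.0028), with no filter (0.0096) and in the joint fit (1.2e-04).

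In BT-474 EIF4EBP2 fell with EIF4EBP1, at 79.1, 79.1 and 79.4 CPM with afatinib, against 111, 111 and 108 CPM in controls (−0.46 ± 0.06, adjusted p = 1e-04). In SW48 of set 1 its rise with trametinib (0.30, 0.048) was lost whichever of the 6 libraries was left out (0.25 to 0.37, adjusted p 0.051 to 0.14). The third of these genes, EIF4EBP3, had 0 to 4 counts in a library, and EIF4E1B, a cap-binding relative of EIF4E, had 0 to 8, so that neither was tested.

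**Figure D3:**
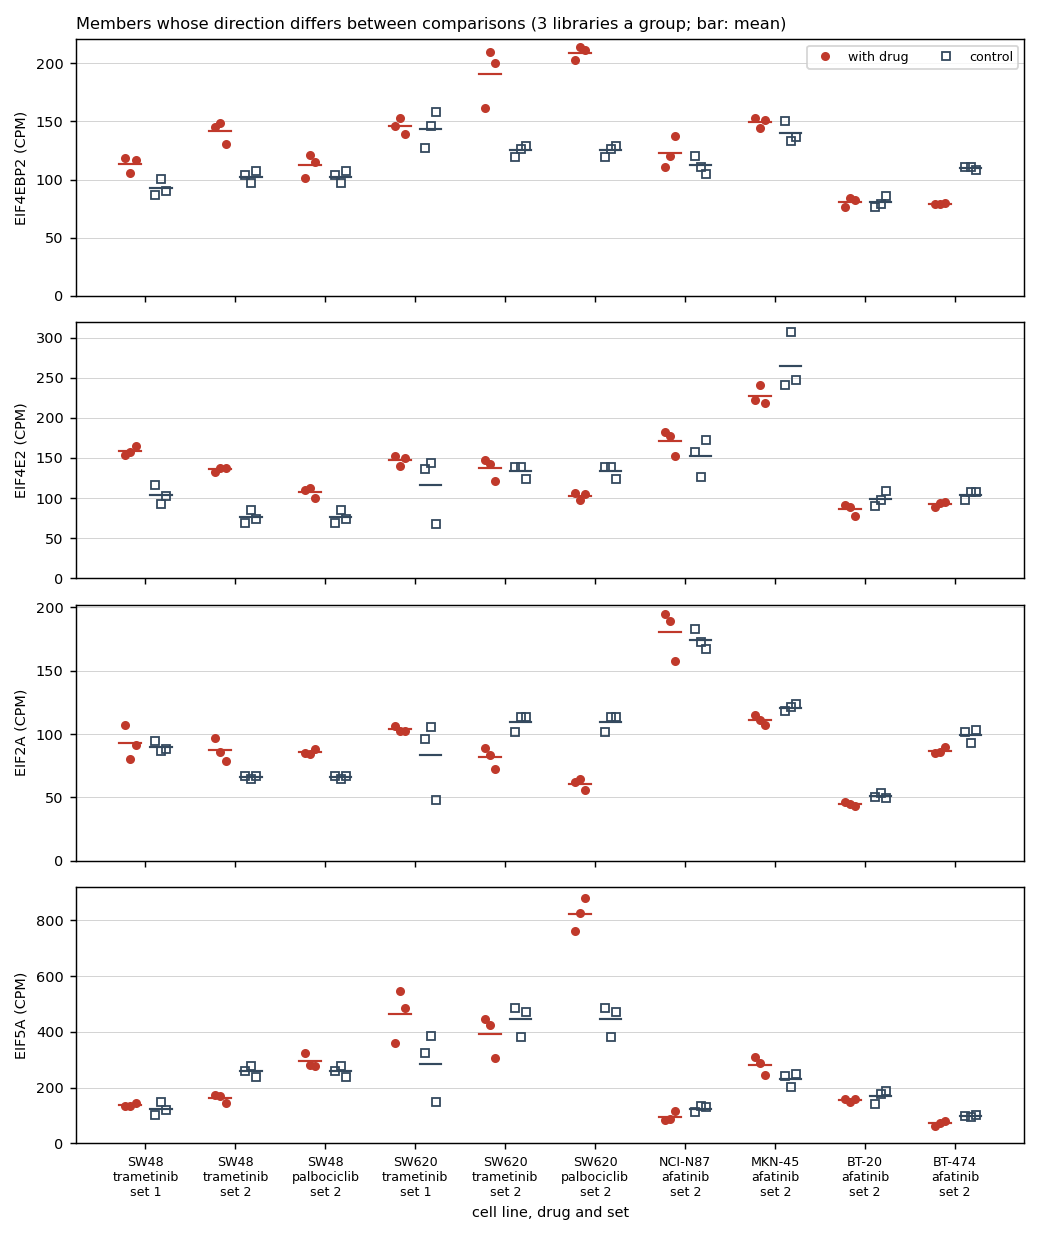
Levels in CPM of EIF4EBP2, EIF4E2, EIF2A and EIF5A in every library of the 10 drug comparisons; filled circles are drug libraries, open squares to their right are controls of the same line and set, and bars are means. EIF4EBP2 lies above the controls in palbociclib-treated SW620 and below them in BT-474, and EIF4E2 and EIF2A lie above the controls in SW48 of set 2 and below them in palbociclib-treated SW620.

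EIF5A, which relieves stalled ribosomes and was once counted as an initiation factor, had 175, 169 and 145 CPM with trametinib and 323, 281 and 278 CPM with palbociclib in SW48 of set 2, against 259, 279 and 239 CPM in controls. It fell with trametinib (−0.68 ± 0.08, adjusted p = 1.3e-05), and the palbociclib libraries overlapped the controls (0.18 ± 0.08, 0.052; passing without control 2 or without palbociclib 3, with up to 0.24, and with DESeq2, at 0.035). With trametinib in SW48 of set 1 EIF5A did not fall, and its value of 0.18 did not pass (adjusted p = 0.35). In SW620 it rose with palbociclib, at 761, 826 and 879 CPM, against 486, 383 and 469.8 CPM in controls (0.93 ± 0.10, 8.7e-05). In BT-474 it fell with afatinib, at 61.6, 72.6 and 80.2 CPM, against 99.2, 96.3 and 102 CPM in controls (−0.46 ± 0.09, 0.0013).

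Of the 31-base words in the last 500 bases of EIF5A 66.4% occur in its copy EIF5AL1, so reads may be split between them. With the counts of both summed, the rise with palbociclib in SW620 was 0.37 ± 0.12 (adjusted p = 0.028), that in SW48 was 0.19 and passed (0.031), and the falls were −0.49 with trametinib in SW48 of set 2 and −0.66 in BT-474. The summed value with trametinib in SW48 of set 1 was 0.24 and did not pass (0.095). EIF5A2, a relative expressed in few tissues, had 12.6, 9.75 and 12.2 CPM with palbociclib in SW620, against 8.0, 8.40 and 8.0 CPM in controls (0.55 ± 0.16, 0.023), a call lost without control 1, control 2, palbociclib 1 or palbociclib 3 (adjusted p up to 0.08).

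The 2 colorectal lines were compared directly by testing the difference of their drug effects, SW620 minus SW48. For trametinib in set 1, 6 of 50 members had a higher change in SW620 and 0 a lower one, against 3.95% and 2.78% of all genes, and the calls came to 14 without SW620 control 3 (against 16.3% of all genes) and to 3 without any of 7 other libraries, the 3 SW48 controls, SW48 trametinib 1 and 2 and SW620 trametinib 1 and 3. In set 2 the counts were 17 and 4 of 50, against 15.3% and 12.9%, and 13 and 6 with the size factors of DESeq2 as scaling. For palbociclib they were 18 and 10 of 50, against 14.6% and 11.2%. The trametinib effect on EIF1 was higher in SW620 by 1.67 ± 0.24 in set 1 (adjusted p = 0.0019) and by 1.28 ± 0.22 in set 2 (7.6e-04), and that on EIF2S2 by 1.01 ± 0.17 (0.0064) and 1.28 ± 0.22 (6.9e-04).

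EIF4EBP1 differed in set 2 by 1.55 ± 0.37 (adjusted p = 0.006) and EIF3J by 0.89 ± 0.23 (0.0094), while the difference of EIF3J in set 1 (1.0, 0.026) was lost for 8 of the 12 libraries when that library was left out (0.82 to 1.14, adjusted p up to 0.07). EIF5 differed by 1.32 ± 0.13 for trametinib (5.6e-06) and 1.09 ± 0.11 for palbociclib (2.7e-06). With palbociclib EIF6 and EIF5A were higher in SW620 by 0.80 ± 0.10 (4.1e-05) and 0.75 ± 0.13 (6.9e-04). With EIF5AL1 counts added, the palbociclib changes of EIF5A were closer, at 0.37 in SW620 and 0.19 in SW48. Their difference on summed counts was not tested. EIF4H was higher by 1.22 ± 0.34 (0.014), a call lost without SW48 control 3 (0.98 to 1.56 over the 12 fits, 0.054 without that library). The effect of palbociclib on EIF2A was lower in SW620 by 1.17 (−1.17 ± 0.11, 1.9e-06), that on EIF4E2 was −0.82 ± 0.12 (1.7e-04) and that on EIF3D −0.74 ± 0.09 (3.5e-05).

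Trametinib and palbociclib were compared in SW48 of set 2 without their shared controls, trametinib minus palbociclib, and 7 of 50 members were higher and 15 lower with trametinib, against 21% and 20.9% of all genes. The joint fit of set 2 called fewer members, as counted in the part on processing below. EIF5A was lower with trametinib by 0.87 (−0.87 ± 0.08, adjusted p = 1.9e-06), EIF4EBP1 had a difference of −0.70 ± 0.09 (5.4e-05; 0.059 in the joint fit of set 2), EIF3B of −0.45 ± 0.06 (5.5e-05) and EIF6 of −0.44 ± 0.07 (1.6e-04). EIF4E2 was higher with trametinib by 0.32 ± 0.07 (0.0016) and EIF4EBP2 by 0.31 ± 0.08 (0.0055). EIF3E had the highest difference, at 0.61 ± 0.16 (0.0072), which was 0.35 without trametinib 1 (0.022) and did not pass with DESeq2 (0.061) or in the joint fit (0.066). The difference did not pass for EIF1, at 539 ± 37.5 CPM with trametinib and 523 ± 19.0 CPM with palbociclib (SD, n = 3 each; 0.02 ± 0.06, 0.78), nor for EIF3J, at 300.1 ± 6.31 CPM with trametinib and 290.0 ± 10.3 CPM with palbociclib (0.03 ± 0.06, 0.69).

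**Figure D4:**
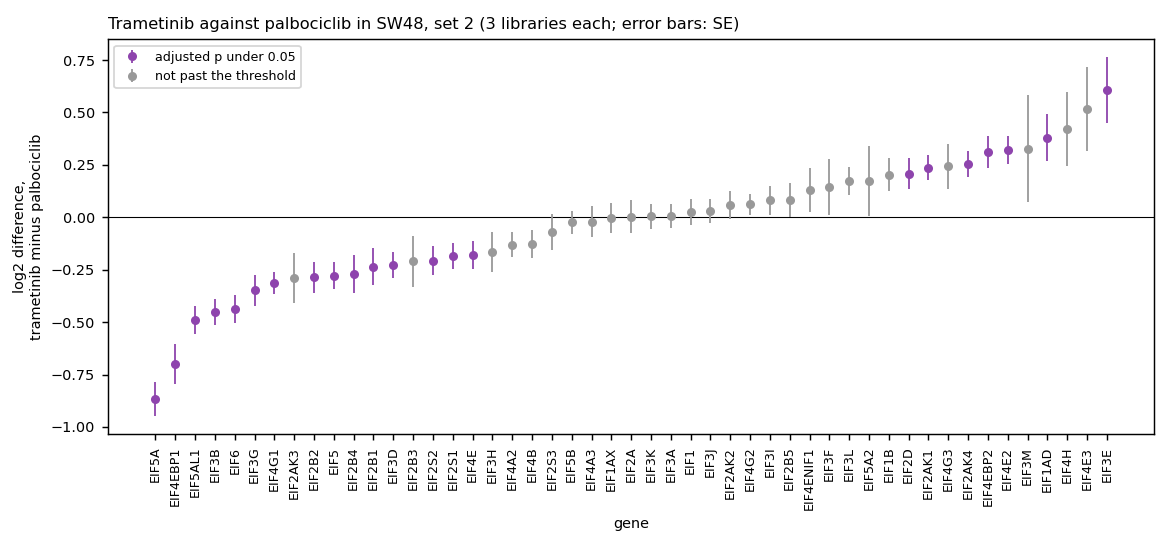
Difference between trametinib-treated and palbociclib-treated SW48 cells of set 2 (log2, trametinib minus palbociclib, with its SE as bars) for the members tested, EIF3C left out. EIF5A (−0.87) and EIF4EBP1 (−0.70) lie farthest to the side of lower levels with trametinib, and EIF3E (0.61, but 0.35 without trametinib 1) to the other side.

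Among the 4 lines given afatinib, the effect differed for 13 of 50 members in a joint test of the 4 effects, against 17.7% of all genes, for 21 without NCI-N87 control 1 (against 29.7%) and for 8 without BT-474 control 2 (against 13%). The changes of EIF1 were −0.62 in NCI-N87, 0.22 in MKN-45, −0.02 in BT-20 and −0.70 in BT-474 (adjusted p of the difference = 0.0012). Those of EIF4EBP2 were 0.15, 0.11, 0.03 and −0.46 in the same lines (0.0027), those of EIF4G2 were 0.04, 0.11, 0.01 and −0.47 (0.0024), and those of EIF3J were 0.09, −0.00, −0.16 and −0.55 (0.0057). For EIF5A they were −0.37, 0.30, −0.09 and −0.46 (0.017), a call lost without MKN-45 afatinib 1 (0.051). With EIF5AL1 counts added, the changes of EIF5A were −0.04, 0.26, −0.13 and −0.66, and their difference was not tested. For EIF1 in NCI-N87 the change without control 1 was −0.85 and passed (0.0011), as did that with all libraries in the joint fit of set 2 (−0.63, 0.0047).

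The lines differed in their levels before any drug. In the 6 control groups of set 2, 42 of 50 members passed a joint test with at least a 2-fold ratio between the highest and the lowest line, against 87.6% of all genes, so a difference between lines was common to most genes. EIF1AX had a ratio of 8.81 between its highest and lowest line, with 563 ± 16.7 CPM in MKN-45, 444 ± 6.73 in SW620, 346 ± 4.44 in SW48, 332 ± 11.4 in BT-474, 136 ± 7.33 in BT-20 and 63.9 ± 6.46 CPM in NCI-N87 (SD, n = 3 each; adjusted p = 8.7e-16). Of the neighbours in this order, SW48 and BT-474 overlapped.

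EIF2S2 and EIF2S3 belong to 1 complex and were ordered differently. EIF2S2 was highest in BT-20 (1022 ± 22.4 CPM), then SW620, SW48, MKN-45 and NCI-N87, and lowest in BT-474 (168 ± 6.83 CPM), with no overlap between neighbours (adjusted p = 5.1e-12). EIF2S3 was highest in MKN-45 (909 ± 77.2 CPM), then SW620, BT-474, BT-20 and NCI-N87, and lowest in SW48 (182 ± 9.66 CPM), where the last pair overlapped (2.5e-12). EIF2S1 was highest in SW48 (195 ± 3.16 CPM), at 2.54 times its level in BT-20.

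EIF6 was highest in BT-474, with 768 ± 8.67 CPM, and lowest in MKN-45, with 123 ± 20.8 CPM (adjusted p = 3.9e-10), and the lower 3 lines, BT-20, NCI-N87 and MKN-45, overlapped with their neighbours. EIF4EBP1 was highest in SW48 (132 ± 13.2 CPM), then SW620, BT-20, NCI-N87 and BT-474, and lowest in MKN-45 (26.6 ± 4.66 CPM; 3e-08), with overlap between SW48 and SW620 and among the last 3. EIF4EBP2 had 139.9 ± 8.96 CPM in MKN-45, the highest line, and 80.5 ± 5.06 CPM in BT-20, the lowest, a ratio of 1.74, and the ratio was 1.72 for EIF4E and 1.74 for EIF4G1. EIF5A2 was at 17.6 CPM in BT-20 and 1.67 CPM in BT-474, where the controls had 10, 1 and 25 counts, and EIF4E3 was at 10.6 CPM in SW48 while each SW620 control had 1 count.

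**Figure D5:**
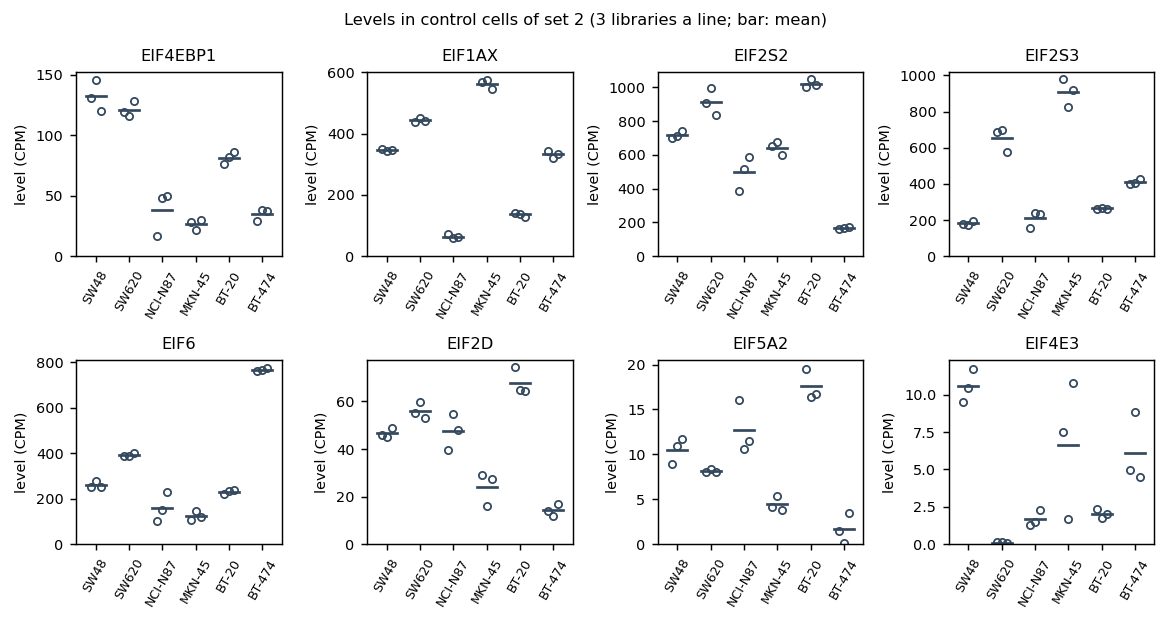
Levels in CPM of EIF4EBP1, EIF1AX, EIF2S2, EIF2S3, EIF6, EIF2D, EIF5A2 and EIF4E3 in the control libraries of the 6 lines of set 2; circles are libraries, bars are means, and each panel has its own scale. MKN-45 is highest for EIF1AX and EIF2S3, BT-20 for EIF2S2, EIF2D and EIF5A2, BT-474 for EIF6, and SW48 for EIF4EBP1 and EIF4E3.

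Genes of the integrated stress response, which follows phosphorylation of eIF2, had the lowest medians of the 4 lists of genes around these factors in the 3 SW48 comparisons, in SW620 with palbociclib and in BT-474. Among all genes the shares called higher and lower in these 5 were 16% and 19.4%, 30.1% and 30.1%, 28.3% and 29.2%, 17.6% and 17.4%, and 20.9% and 21.8%. Of 11 tested, 0 were higher and 11 lower with trametinib in SW48 of set 1 (median −1.90), of set 2 (−2.30) and with palbociclib in SW48 (−1.79), 7 were lower with palbociclib in SW620 (−1.43) and 6 with afatinib in BT-474 (−0.60). ATF4, its transcription factor and itself the median gene, fell by 1.90, 2.30, 1.79, 1.43 and 0.60 on the log2 scale in these 5 comparisons. ASNS, the asparagine synthetase, had log2 changes of −4.36, −4.07, −3.49, −3.01 and −1.59, and TRIB3, an inhibitor of AKT induced by ATF4, of −4.23, −3.73, −2.96, −2.42 and −1.13. With trametinib in SW620 and with afatinib in the other 3 lines 0 of the 11 were called, of which 7 had an unadjusted p under 0.05 in NCI-N87 and 8 were called there without control 1.

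Among 18 regulators of mTORC1 and of the S6 and MNK kinases the calls went both ways: 3 higher and 6 lower with trametinib in SW48 of set 1, 7 and 9 in set 2, 6 and 7 with palbociclib in SW48, 5 and 3 with palbociclib in SW620, and 5 and 6 with afatinib in BT-474. Several of these counts, such as 3 of 18 higher in SW48 of set 1 and 3 of 18 lower in SW620, lie near the shares of all genes. In SW48 of set 1 the calls without trametinib 2 came to 5 in all. DDIT4 and SESN2, which hold mTORC1 down, fell by 5.24 and 2.84 with trametinib in SW48 of set 2, while SESN3, a relative of SESN2, rose by 0.84 there and by 2.34 with palbociclib. MLST8, a subunit of mTORC1, fell in the 3 SW48 comparisons (−2.09, −1.79 and −1.26) and rose with palbociclib in SW620 (0.65). MKNK1, a kinase of eIF4E, rose with trametinib and palbociclib in SW48 of set 2 (0.41 and 0.86) and with afatinib in BT-474 (0.59).

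Partners of initiation outside the symbol rule, such as poly(A)-binding and cap-binding proteins, were called higher and lower in 2 and 3 of 16 with trametinib in SW48 of set 1, 4 and 11 in set 2, 3 and 9 with palbociclib in SW48, 4 and 2 of 17 in SW620, and 2 and 10 of 17 in BT-474. Set against the shares of all genes given above, the 11, 9 and 10 lower in SW48 of set 2 and BT-474 stand higher, and the other counts lie near or below them. Leaving out 1 library gave 3 to 5 calls with trametinib in SW48 of set 1, fewest without control 2 or 3 or trametinib 2 or 3, and 2 to 7 with palbociclib in SW620, fewest without control 1, palbociclib 1 or palbociclib 2. LARP1, which binds terminal oligopyrimidine mRNAs, fell by 1.04 and 1.21 with trametinib and palbociclib in SW48 of set 2, and by 0.74 with afatinib in BT-474. Elongation and release factors were called in 0 and 7 of 10 with trametinib in SW48 of set 1, 2 and 6 in set 2, 1 and 7 with palbociclib in SW48, 1 and 6 of 11 in SW620, and 1 and 5 of 11 in BT-474. EEF1A1 and EEF2, which carry tRNA to the ribosome and move it along, fell by 1.46 and 1.16 with trametinib in SW48 of set 1. In set 2 with the same drug and line EEF2 did not pass (−0.09, adjusted p = 0.17), and the call on EEF1A1 (−0.32, 0.015) was lost without control 3, trametinib 2 or trametinib 3 (−0.43 to −0.20) and in the joint fit.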

How the data were processed

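Libraries of 54 samples were made from 500 ng of total RNA with a kit that the labels' protocols call QuantSeq, a 3′ end method, beside a catalogue number that may belong to another kit. Per the submitters' processing notes, the tools named are Trimmomatic, STAR and featureCounts, and the build is hg38. The deposited values are raw counts per gene, and 5 lines of set 1 that name no gene, with 39.69% to 73.76% of all values, were left out of totals and tests. Replicates differed by more than sampling noise (lowest chi-square per degree of freedom 2.836).

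The members and the lists of genes around them were chosen with earlier results of these data known. From the deposited counts, edgeR 4.0.16 (R 4.3.3) was fitted to the groups of each comparison with filterByExpr (minimum count 10, minimum total 15), TMM scaling and the two-sided quasi-likelihood test, with Benjamini-Hochberg adjustment over all genes tested and a threshold of 0.05. Levels are CPM after TMM over all libraries of a set, log2 changes are drug minus control with the SE from the test, and a call on control levels also needed a 2-fold ratio. The calculation was tested on simulated counts with 200 genes changed.

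Called members with treated libraries on 1 side of all controls were named by the 8 highest and the 8 lowest changes of a comparison, beside a fixed set of 18 genes, and by the 5 highest and 5 lowest differences. Other members were named to describe a role, after their values were seen. Alternatives were other scaling, no filter, DESeq2 1.42.0, a joint fit of all groups in the set, a block for the replicate number, each library left out, a 1.5-fold minimum and copies summed. Counting error limits genes with few counts.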

Additional observations from a re-analysis of the deposited data

Results flagged for a closer look

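Drug effects on these members differed between the lines by a test of the difference itself, given here as log2, SW620 minus SW48. For trametinib in set 1 the differences were 1.67 for EIF1, 1.38 for EIF2B2, 1.01 for EIF2S2, 1.0 for EIF3J and 8.2 for EIF3C, whose reads are uncertain. The call on EIF2B2 was lost for 10 of the 12 libraries when that library was left out (1.13 to 1.71, adjusted p up to 0.12), and that on EIF3J for 8 (0.82 to 1.14).

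For trametinib in set 2 the difference was 1.55 for EIF4EBP1, 1.32 for EIF5, 1.28 for EIF1, 1.28 for EIF2S2 and 0.89 for EIF3J, and it was −0.8 for EIF2A, −0.78 for EIF4E2, −0.61 for EIF2B1 and −0.32 for EIF2AK4. The call on EIF2AK4 was lost for 6 libraries when that library was left out (−0.39 to −0.26, adjusted p up to 0.095).

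For palbociclib it was 1.22 for EIF4H, 1.09 for EIF5, 0.8 for EIF6, 0.76 for EIF2S2 and 0.75 for EIF5A, and it was −1.17 for EIF2A, −0.82 for EIF4E2, −0.74 for EIF3D, −0.65 for EIF3E and −0.57 for EIF2B1. The call on EIF3E was lost for 7 libraries when that library was left out (−0.85 to −0.43, adjusted p up to 0.12), and that on EIF4H without SW48 control 3. The value for EIF5A is without its copy EIF5AL1. With both summed, the changes were 0.37 in SW620 and 0.19 in SW48, and their difference was not tested.

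Effects of afatinib differed among the 4 lines for EIF1 (adjusted p of the joint test = 0.0012), EIF4G2 (0.0024), EIF4EBP2 (0.0027), EIF3J (0.0057) and EIF5A (0.017). The joint test was not run on the summed counts of EIF5A and EIF5AL1. Groups of 3 libraries were too small for a test of single outlying libraries. Those that stood apart are only described, by their values and by fits without them.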

How the results depend on the processing

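When groups of a set were all fitted jointly, the count of members called was 11 for trametinib in SW48 of set 1, 23 in SW48 of set 2, 7 for trametinib in SW620 of set 2, 10 for NCI-N87 and 11 for trametinib against palbociclib. With a 1.5-fold minimum it was 12 for trametinib in SW48 in each set, 11 for palbociclib in SW48, 11 in SW620 and 4 in BT-474. With no filter on low counts it was 3 for trametinib in SW620 of set 2, 1 in NCI-N87 and 1 in BT-20, and DESeq2 called 4 for trametinib in SW620 of set 2. Except where a share of all genes is given above, the counts in this part do not set members apart from other genes.

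With each library left out in turn, the count was 16 to 22 and 27 to 35 for trametinib in SW48 of sets 1 and 2, 25 to 34 for palbociclib in SW48, 19 to 26 in SW620 and 16 to 23 in BT-474. Over all genes the calls in these fits were, in the same order, 3309 to 3851, 6855 to 7260, 6438 to 6961, 3336 to 4736 and 4515 to 5311. For trametinib in SW620 the count of members was 0 in set 1 and 0 to 6 in set 2, with 6 without trametinib 1. In NCI-N87 it was 0 to 13, with 13 without control 1, in MKN-45 0 and in BT-20 0 to 1. Between the lines it was 3 to 14 for trametinib in set 1 (14 without SW620 control 3 and 3 without any of 7 others), 15 to 21 in set 2 and 23 to 30 for palbociclib. It was 16 to 23 for trametinib against palbociclib, 8 to 21 for the afatinib effect (8 without BT-474 control 2 and 21 without NCI-N87 control 1) and 41 to 43 for control levels.

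Replicate numbers did not pair the libraries, since correlations of same-numbered deviations ran from −0.169 to 0.137. With the replicate number as a block the counts were 19, 34, 28, 22 and 20 for trametinib in SW48 of sets 1 and 2, palbociclib in SW48 and SW620 and afatinib in BT-474, 2 for the line difference of set 1, 18 and 24 for those of set 2, 23 for trametinib against palbociclib, 5 for the afatinib effect, 42 for control levels and 0 for the other drug comparisons.

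Of 133 calls on single members, 131 passed with the size factors of DESeq2, 122 with no filter, 121 in DESeq2, 120 with the block and 94 in the joint fit, and 656 of 798 fits with 1 library left out kept their call. Of 49 named differences, 45 passed with the block, which did not call EIF2B2, EIF2S2 (1.02, 0.05) and EIF3J in set 1 or EIF2AK4 in set 2 between the lines. In these alternatives 0 calls changed sign. The cause of these changes was not tested. The runs on lists and on members outside the naming rule were added after seeing the data. Totals of 3401565 to 12806042 counts limit members of few counts, such as EIF4E3, EIF5A2 and EIF4EBP3.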

Other observations

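EIF3E, EIF3M and EIF5AL1 were low in 1 control library of MKN-45, control 2, where EIF3E had 84.9 CPM, against 286 and 248 CPM in the other 2 controls, and EIF5AL1 had 151 CPM, against 397 and 477 CPM. In SW620 control 3 of set 1, the library that stood apart, EIF1 had 416 CPM, against 657 and 693 CPM in the other 2, and EIF6 had 611 CPM.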
